A study of Mus musculus with 20 samples.

Results

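The cytochrome P450 genes of families 1 to 4 were followed in 20 mouse livers. Members were selected on summed counts, as the genes whose symbol is Cyp with a family number from 1 to 4, a subfamily letter and a gene number, and whose counts over the 20 libraries add up to 200 or more. This gave 59 of the 80 genes with such symbols, among 55421 genes in the count table. They comprised 3 genes of family 1, 34 of family 2, 8 of family 3, all of subfamily Cyp3a, and 14 of family 4. Of the other 21 genes, 6 had no count and 15 had fewer than 200. Just inside the threshold lay Cyp4a12b with 335 counts in total, Cyp2s1 with 398, Cyp1a1 with 480, Cyp1b1 with 582 and Cyp4f18 with 754. Just outside it lay Cyp4f39 with 190, Cyp2d12 with 156, Cyp2t4 with 144, Cyp2d11 with 129, Cyp2j8 with 82 and Cyp3a57 with 65. All 59 members passed the filter of 10 counts used for testing. Because summed counts chose these genes, their overall abundance is given as a description and not tested.

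All mice were wildtype C57BL/6, labelled female, and were injected retro-orbitally at 6 months of age with the viral vector AAV8-Tbg-saCas9, which carries the Staphylococcus aureus Cas9 under the Tbg promoter and a guide RNA under the U6 promoter. The Tbg promoter is active in hepatocytes, so other liver cells were not targeted. In the Rosa26 groups the guide was directed at the Rosa26 locus, a common neutral target, and in the HIRA groups at Hira, which encodes a chaperone that places the histone variant H3.3 in chromatin. Livers were taken 3 weeks or 6 months after injection, with 5 mice in each of the 4 groups, and polyadenylated RNA of bulk tissue was sequenced. The comparisons ask how the P450 genes differed between guides at each time, between times within a guide, and whether the guide difference changed with time. In bulk tissue, fewer cells of a type and less RNA per cell cannot be told apart.

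Cytochrome P450 enzymes are heme proteins that insert an oxygen atom into their substrates, using electrons passed on by P450 oxidoreductase and cytochrome b5. Enzymes of families 1 to 3 oxidise drugs, pollutants and steroids in the liver, most of them in hepatocytes around the central vein, and enzymes of family 4 hydroxylate fatty acids and eicosanoids. Their genes are switched on by ligand-activated receptors: the aryl hydrocarbon receptor for family 1, the receptors CAR and PXR for many Cyp2b, Cyp2c and Cyp3a genes, and PPAR alpha for Cyp4a genes. In mice a set of P450 genes is expressed in a sex-biased manner under the control of the growth hormone rhythm, and another set follows the daily rhythm of the clock output factors DBP, TEF and HLF.

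Library totals ranged from 19916430 to 24079736 counts. Levels are given below in CPM, counts scaled to a common library size after TMM normalisation, fold changes are on the log2 scale with their standard error, and a gene counts as called when the edgeR quasi-likelihood test gave an adjusted p under 0.05 and the absolute log2 fold change was above 1. Hira itself stood at 6.94 ± 1.01 CPM (SD, n = 5) with the Rosa26 guide and 4.96 ± 0.849 with the HIRA guide at 3 weeks, and at 5.98 ± 0.905 and 5.58 ± 0.574 at 6 months. It was not called at either time (adjusted p = 0.197 and 0.794, edgeR over all genes). These values are RNA, and for this CRISPR model the study reports a loss of HIRA protein by western blot. At 6 months HIRA replicate 5 held the highest Hira level of its group, 6.51 CPM, and without it the mean was 5.35 ± 0.289 (n = 4, adjusted p = 0.614). The hepatocyte markers were present in all libraries, with a sum over 10 genes of 99919 to 148400 CPM in Rosa26 and 128580 to 166290 in HIRA livers at 3 weeks, and 86951 to 127810 and 105950 to 148540 at 6 months. The library labelled HIRA 6 months replicate 5 went against its label: it held 9 counts of Xist, the X-inactivation transcript of females, where the other 19 libraries held 6286 to 8436, and 2041 counts of 4 Y-linked genes, where the others held at most 13. The main values at 6 months are therefore given with and without this library, and since all groups share an estimate of the spread in the fit, so are tests at 3 weeks where it mattered. Rosa26 3 weeks replicate 2 also stood apart: the chi-square of its counts against the other 4 livers of its group was 87.8 to 115 per gene, beside 21.6 to 43.3 among those 4, and for HIRA 6 months replicate 5 the values were 87.0 to 121 beside 24.0 to 72.3. It was the lowest 3-week control in 32 of 59 members and the highest in 6, beside 18.1% and 21.2% of all genes, and results that rest on it are given without it too.

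Most members lie in tandem arrays. All 13 Cyp2c genes are on chromosome 19, all 5 Cyp2d genes on chromosome 15, all 8 Cyp3a genes on chromosome 5, and chromosome 7 holds 12 members, among them the Cyp2a and Cyp2b genes within a stretch from 25897620 to 27037375 (GRCm38). Cyp3a13 (chr5:137892932-137921619) and Cyp2c23 (chr19:44005022-44029208) lie apart from the other genes of their subfamilies. Neighbours in an array are close copies, so reads can be shared between them. Of the 75-base windows in the annotated transcripts of Cyp3a41a and Cyp3a41b, 95.3% and 90.9% also occur in another gene, most often in the other of the pair, and the shares were 45.9% for Cyp2c40, 42.6% for Cyp2c69 and 40.8% for Cyp4a12a. Over 10% of windows were shared in 23 members and under 1% in 18, and the levels of the first set are uncertain to that extent. Cyp4f18 overlaps Zfp961 on the opposite strand, a gene with 415% of its counts, and whether the counting used the strand is not given in the sources used here.

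Promoter windows, from 250 bases before to 50 bases after the start, were taken from RefSeq on GRCm38.p6 for 48 of the 59 members, with 53 windows in all. None was in the table for Cyp2c23, Cyp2c54, Cyp2d22, Cyp2g1, Cyp2u1, Cyp4a10, Cyp4a12a, Cyp4a12b, Cyp4a14, Cyp4a31 and Cyp4f17. The windows of 4 Cyp3a neighbours, of Cyp2c40 and of Cyp2d9 are shown because the guide and time comparisons below turn on these genes, and capitals mark CAAAGTCC, the core of a sequence bound by the liver receptor HNF4A. They are Cyp3a11 (chr5:145879805-145880104, minus strand), Cyp3a16 (chr5:145469674-145469973, minus strand), Cyp3a41a (chr5:145720087-145720386, minus strand), Cyp3a44 (chr5:145805825-145806124, minus strand), Cyp2c40 (chr19:39812765-39813064, minus strand) and Cyp2d9 (chr15:82452127-82452426, plus strand).
Cyp3a11: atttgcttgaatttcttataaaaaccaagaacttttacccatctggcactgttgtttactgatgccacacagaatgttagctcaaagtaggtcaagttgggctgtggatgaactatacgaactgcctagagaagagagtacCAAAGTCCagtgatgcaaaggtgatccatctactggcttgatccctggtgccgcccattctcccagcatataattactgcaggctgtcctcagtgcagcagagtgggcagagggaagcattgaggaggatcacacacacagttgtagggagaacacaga
Cyp3a16: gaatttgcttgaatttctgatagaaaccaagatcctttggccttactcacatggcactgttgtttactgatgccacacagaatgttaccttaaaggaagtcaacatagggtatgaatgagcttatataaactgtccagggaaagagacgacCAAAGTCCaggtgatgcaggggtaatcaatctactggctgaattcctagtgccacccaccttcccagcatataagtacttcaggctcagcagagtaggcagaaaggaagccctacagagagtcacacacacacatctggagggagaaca
Cyp3a41a: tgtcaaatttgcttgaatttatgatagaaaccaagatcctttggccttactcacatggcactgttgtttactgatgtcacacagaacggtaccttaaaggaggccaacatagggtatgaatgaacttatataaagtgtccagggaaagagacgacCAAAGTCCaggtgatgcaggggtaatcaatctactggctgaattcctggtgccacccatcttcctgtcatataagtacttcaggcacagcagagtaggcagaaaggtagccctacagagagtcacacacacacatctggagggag
Cyp3a44: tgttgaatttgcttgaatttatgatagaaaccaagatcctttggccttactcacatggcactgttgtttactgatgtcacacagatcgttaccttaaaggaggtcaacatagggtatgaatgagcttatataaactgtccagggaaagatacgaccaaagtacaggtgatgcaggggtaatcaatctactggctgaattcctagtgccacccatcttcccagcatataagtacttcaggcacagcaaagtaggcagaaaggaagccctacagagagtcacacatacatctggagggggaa
Cyp2c40: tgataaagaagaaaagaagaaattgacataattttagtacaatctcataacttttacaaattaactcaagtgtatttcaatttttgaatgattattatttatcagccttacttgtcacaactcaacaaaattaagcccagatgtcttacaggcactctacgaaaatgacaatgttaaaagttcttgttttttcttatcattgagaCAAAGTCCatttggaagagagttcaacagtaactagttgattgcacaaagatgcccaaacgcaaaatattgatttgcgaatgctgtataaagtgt
Cyp2d9: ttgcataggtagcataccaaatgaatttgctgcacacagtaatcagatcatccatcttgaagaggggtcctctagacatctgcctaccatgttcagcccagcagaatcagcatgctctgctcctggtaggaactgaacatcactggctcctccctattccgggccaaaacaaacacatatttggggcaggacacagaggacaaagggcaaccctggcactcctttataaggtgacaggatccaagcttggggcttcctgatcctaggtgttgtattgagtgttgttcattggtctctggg

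Both strands of every window were searched. CAAAGTCC occurred in 12 of the 53 member windows (22.6%) and in 467 of 32851 windows of all genes (1.42%). The 12 windows belong to Cyp2a4, Cyp2a5, Cyp2c40, Cyp2c67, Cyp2c68, Cyp2c69, Cyp2c70, Cyp3a11, Cyp3a16, Cyp3a41a, Cyp3a41b and Cyp4f18, and in all of them the match reads along the gene. It lay 109 to 102 bases before the start in Cyp3a11, 99 to 92 in Cyp3a16 and 95 to 88 in Cyp3a41a and Cyp3a41b, while the windows of Cyp3a44 and Cyp2d9 held none. The TATA sequence TATAAA was found, at any position, in 49.1% of member windows and 13.6% of all windows. In members it began from 234 bases before the start in Cyp3a11 to 40 after it in Cyp2c40, so a match need not be a TATA box. The nuclear receptor half-sites were found in 28.3% and 16.3% for AGGTCA and in 18.9% and 14.0% for AGTTCA. The STAT5 motif TTCNNNGAA, linked to growth hormone, was in 3.77% and 8.30%, the core GCGTG of the element bound by the aryl hydrocarbon receptor in 17.0% and 32.4%, and the D-box TTATGTAA of DBP, TEF and HLF in 0 of 53 and 0.938%. Matches of different motifs can share bases at their ends, as AGGTCA ends and CAAAGTCC begins in CA. Neighbouring promoters are copies too: Cyp3a16 and Cyp3a44 were identical at 93.4% of aligned positions and Cyp3a41a and Cyp3a41b at 97.3%, while Cyp3a11 shared 69.6 to 74.8% with these 4.

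Per kilobase of exon, the highest mean level over the 20 libraries was that of Cyp2e1, the ethanol-oxidising enzyme, at 2317 CPM per kilobase. It was followed by Cyp2d26 at 727, Cyp2c37 at 524, Cyp3a11 at 521, Cyp2c29 at 517, Cyp2f2 at 416, Cyp2d10 at 402, Cyp2c70 at 347, Cyp2a4 at 326 and Cyp1a2 at 302. Cyp3a11 is the main drug-oxidising Cyp3a enzyme of mouse liver, Cyp2c70 makes muricholic acids, Cyp1a2 oxidises caffeine and aromatic amines, and Cyp2f2 is known from periportal hepatocytes. The lowest levels were 0.185 for Cyp2s1, 0.224 for Cyp1b1, 0.354 for Cyp4a12b and 0.394 for Cyp1a1.

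The members together took 2.17 ± 0.299% of library counts in Rosa26 livers and 2.58 ± 0.110% in HIRA livers at 3 weeks (SD, n = 5 each). Rosa26 replicate 2 was at 1.70%, and the other 4 controls at 2.29 ± 0.164%. The shares were 2.17 ± 0.172% and 2.47 ± 0.262% at 6 months, and 2.46 ± 0.302% in HIRA livers without replicate 5 (n = 4). The Cyp3a genes took 0.288 ± 0.0493% of counts in Rosa26 and 0.426 ± 0.0435% in HIRA livers at 3 weeks, and 0.315 ± 0.0272% and 0.464 ± 0.106% at 6 months. Cyp3a11 by itself took 0.197 ± 0.0399%, 0.338 ± 0.0372%, 0.173 ± 0.0268% and 0.362 ± 0.122% in the same order. Family 2 took 1.66 ± 0.208% and 1.87 ± 0.113% at 3 weeks and 1.64 ± 0.132% and 1.73 ± 0.241% at 6 months. These shares are descriptions without a test, as the members were chosen with results known.

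**Figure D1:**
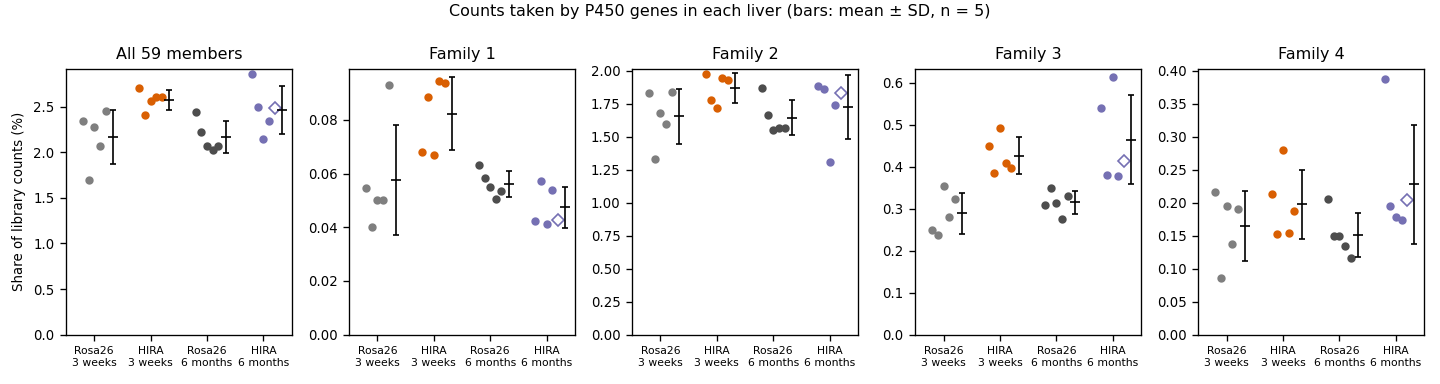
Percent of each library's counts taken by all 59 members and by families 1 to 4 (vertical axes start at 0), one point per liver and grouped by guide and time, with the mean and SD of 5 livers beside each group. The diamond is HIRA 6 months replicate 5. Family 3 stood at 0.288 ± 0.0493% and 0.426 ± 0.0435% at 3 weeks and at 0.315 ± 0.0272% and 0.464 ± 0.106% at 6 months, Rosa26 first.

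Livers of the same group differed more in these genes than in most others. The standard deviation of log2 CPM within groups, without HIRA 6 months replicate 5, had a median of 0.363 over the 57 members whose mean reached 1 CPM and of 0.193 over all 12903 such genes. It was smallest for Cyp2j5, an arachidonic acid epoxygenase, at 0.165, for Cyp4f13 at 0.175 and for Cyp2r1, the vitamin D 25-hydroxylase, at 0.177. It was largest for 4 neighbours in the Cyp3a array, at 1.45 for Cyp3a41b, 1.22 for Cyp3a16, 1.16 for Cyp3a44 and 1.08 for Cyp3a41a, followed by the fatty acid hydroxylases Cyp4a14 at 0.874 and Cyp4a10 at 0.747. Cyp4a14 ranged from 162 to 814 CPM among Rosa26 livers at 3 weeks, or from 423 without replicate 2, the lowest.

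At 3 weeks no P450 gene passed both thresholds. By edgeR 0 of 59 members were called, beside 0.114% of all 22867 genes tested, and 7 members were higher and 0 lower with the HIRA guide at an unadjusted p under 0.05, beside 4.37% and 4.5% of all genes. Without Rosa26 replicate 2, 4 were higher and 0 lower at that p, and 42 differences were positive. DESeq2 called 1 member, Cyp2a5, and the FPKM values tested with limma called 0. The fitted difference was positive in 45 members and negative in 14, with a median of 0.12 on the log2 scale beside -0.006 over all genes. Without HIRA 6 months replicate 5 the same fit called 1 member higher, Cyp2d9, beside 0.189% of all genes, with 12 higher and 1 lower at an unadjusted p under 0.05 (4.84% and 5.01% of all genes).

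Among the xenobiotic enzymes of families 1 to 3, Cyp3a11 had the smallest p. It stood at 1725, 1551, 2478, 1919 and 2310.4 CPM in Rosa26 livers and at 3675, 2866, 3918, 3094 and 3277 in HIRA livers, replicates 1 to 5 in order. All 5 HIRA livers lay above all 5 controls. The log2 fold change was 0.75 ± 0.17 (1.69-fold), and the adjusted p of 0.0819 by edgeR did not pass. Cyp2a5, the coumarin 7-hydroxylase, had 255, 172, 244, 194 and 417 CPM in controls and 532, 398, 373, 807 and 448 in HIRA livers, which overlap through control replicate 5. Its log2 fold change was 1.00 ± 0.28 with an adjusted p of 0.19 by edgeR and 0.0416 by DESeq2.

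Cyp1a2 had 565, 417, 512, 485 and 935 CPM in controls and 697, 842, 668, 917 and 957 in HIRA livers (log2 fold change 0.49 ± 0.18, edgeR adjusted p = 0.385). Here 4 of 5 controls lay below every HIRA liver. Cyp3a59 had 40.4, 37.0, 60.4, 42.3 and 58.3 CPM and 82.8, 75.3, 71.9, 66.9 and 63.2 CPM, groups that did not overlap (log2 fold change 0.59 ± 0.20, edgeR adjusted p = 0.311, or 0.0745 without the departing 6-month library). Cyp2b10, the classical phenobarbital-induced gene, had 40.9, 30.1, 47.2, 57.7 and 64.7 and 121, 65.4, 66.6, 76.4 and 69.3 CPM, and the highest control at 64.7 lay just under the lowest HIRA liver at 65.4. Its log2 fold change was 0.73 ± 0.34 (edgeR adjusted p = 0.551). Rosa26 replicate 2 was the lowest control in Cyp3a11, Cyp2a5, Cyp1a2, Cyp3a59 and Cyp2b10. Without it the log2 fold changes were 0.68 ± 0.18, 0.88 ± 0.30, 0.39 ± 0.18, 0.52 ± 0.21 and 0.60 ± 0.36, with edgeR adjusted p of 0.232 to 0.851.

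Cyp2d9, a testosterone 16-alpha-hydroxylase that is abundant in male and low in female livers, was called only without that library or within the 3-week libraries. It had 17.5, 20.9, 13.7, 17.0 and 23.5 CPM in controls and 55.2, 50.6, 27.3, 41.0 and 56.6 in HIRA livers, so all HIRA livers exceeded all controls. The log2 fold change was 1.32 ± 0.90 with an edgeR adjusted p of 0.753 when all libraries were fitted and 1.32 ± 0.25 with 0.0245 without HIRA 6 months replicate 5. When only the 10 libraries of 3 weeks were fitted it was also called, with an adjusted p of 0.00433. Even the highest value, 56.6 CPM, was under the 991 CPM of the library with Y-linked counts, and the Y-linked sum was at most 13 counts in every 3-week library.

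No member with a negative difference at 3 weeks passed the test. Cyp2c70 stood at 750.4, 924, 780.0, 889 and 786 CPM in controls and 703, 585, 583, 753 and 727 in HIRA livers, with overlap between the groups (log2 fold change -0.30 ± 0.16, edgeR adjusted p = 0.622). Cyp3a44 had 107, 72.5, 105, 65.0 and 68.3 and 20.6, 41.2, 62.0, 57.4 and 48.5 CPM, without overlap (log2 fold change -0.87 ± 0.73, edgeR adjusted p = 0.828). Cyp3a16, Cyp3a13 and Cyp4f13 had log2 fold changes of -0.87 ± 0.80, -0.25 ± 0.18 and -0.17 ± 0.13 with edgeR adjusted p of 0.853, 0.762 and 0.806. Without Rosa26 replicate 2 the values were -0.26 ± 0.17 for Cyp2c70, -0.91 ± 0.79 for Cyp3a44, -1.02 ± 0.85 for Cyp3a16, -0.03 ± 0.15 for Cyp3a13 and -0.20 ± 0.14 for Cyp4f13. Among the 8 Cyp3a genes, then, Cyp3a11 and Cyp3a59 lay higher with the HIRA guide and Cyp3a44 lower, while the groups overlapped for the other 5.

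In 6 of 59 members all HIRA livers lay above all controls at 3 weeks, namely Cyp2b9, Cyp2b10, Cyp2d9, Cyp3a11, Cyp3a59 and Cyp4f16, beside 1.45% of all genes tested. In 1 of 59, Cyp3a44, all HIRA livers lay below, beside 1.24%. Cyp2b9 had 0.40 ± 0.36 on the log2 scale and Cyp4f16 0.44 ± 0.33 (edgeR adjusted p = 0.851 and 0.781), or 0.30 ± 0.39 and 0.47 ± 0.36 without Rosa26 replicate 2. Of the 8 P450 genes listed as followers of DBP, TEF and HLF (Cyp2a4, Cyp2a5, Cyp2b10, Cyp2c37, Cyp2c50, Cyp3a11, Cyp4a10 and Cyp4a14), all 8 had positive differences, 0 passed the edgeR threshold and 3 had an unadjusted p under 0.05, with a median of 0.53. The 9 listed targets of CAR and PXR had a median of 0.12 with 8 positive, the 8 pericentral genes 0.18 with 8 positive, the 4 targets of PPAR alpha 0.30 with 3 positive and the 3 targets of the aryl hydrocarbon receptor 0.37 with 3 positive. None of these lists held a called gene, beside 0.114% of all genes. Over all genes 49% of the differences were positive, and 4.37% were higher at an unadjusted p under 0.05. Without Rosa26 3 weeks replicate 2 the followers of DBP, TEF and HLF had a median of 0.33 with 7 of 8 positive and 2 at an unadjusted p under 0.05, Cyp2c37 having turned to -0.02 ± 0.29. The medians were then 0.05 for the targets of CAR and PXR (7 positive), 0.12 for the pericentral genes (7 positive), 0.07 for the targets of PPAR alpha (3 positive) and 0.18 for those of the aryl hydrocarbon receptor (3 positive). The lists share members, so their medians are not separate observations.

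At 6 months 5 of 59 members were called higher and 0 lower in HIRA livers by edgeR, beside 0.332% of all genes tested. These were Cyp3a11, Cyp2j9, Cyp2d9, Cyp4a12a and Cyp4a12b. Cyp4a12a and Cyp4a12b met the count rule for membership through replicate 5 alone, which held 5045 of 5071 and 327 of 335 counts, so their calls follow from how members were chosen. Without replicate 5, 1 of 58 members tested was called higher, Cyp3a11, and 1 lower, Cyp2c40, beside 0.449% of all genes. Cyp4a12b then had under 10 counts and was not tested. At an unadjusted p under 0.05, 8 members, Cyp4a12a and Cyp4a12b among them, were higher and 10 lower with all libraries (8.68% and 6.85% of all genes), and 7 and 11 without replicate 5 (9.94% and 7.77%). The fitted difference was positive in 36 and negative in 23 members with all libraries (median 0.08, all genes 0.029) and positive in 28 and negative in 30 without replicate 5 (median -0.04, all genes 0.028).

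Cyp3a11 rose with the HIRA guide. Controls had 1844, 1880.0, 1569, 1356 and 2049.6 CPM and HIRA livers 4132, 2598, 4789, 2589 and 3498 CPM, and every HIRA liver, the departing one included, lay above every control. The log2 fold change was 1.02 ± 0.17 (2.02-fold, edgeR adjusted p = 0.0138) and 1.02 ± 0.18 without replicate 5 (adjusted p = 0.00985). The value lies close to the fold threshold of 1, and the call was lost without Rosa26 replicate 3 (0.98), Rosa26 replicate 4 (0.94), HIRA replicate 1 (0.94) or HIRA replicate 3 (0.88), although its adjusted p stayed between 0.00957 and 0.0395 when any of the 20 libraries was left out. In a fit of the 10 libraries of 6 months alone the adjusted p was 0.104.

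Cyp2j9, of the epoxygenase subfamily Cyp2j, stood at 8.58, 7.55, 5.16, 5.56 and 5.05 CPM in controls and 20.8, 11.3, 9.50, 7.09 and 27.8 in HIRA livers, the highest value being that of replicate 5. Its log2 fold change was 1.26 ± 0.30 (edgeR adjusted p = 0.0384) and 0.93 ± 0.27 without replicate 5, where it did not pass (adjusted p = 0.0742). The calls of Cyp2d9, Cyp4a12a and Cyp4a12b rested on replicate 5. Cyp2d9 had 17.8, 14.1, 9.51, 9.40 and 4.95 CPM in controls and 20.1, 16.2, 16.8 and 10.46 in HIRA replicates 1 to 4, beside 991 in replicate 5. The adjusted p was 0.0384 with all libraries, and without replicate 5 the log2 fold change was 0.51 ± 0.27 with an adjusted p of 0.342. Cyp4a12a, which makes 20-HETE from arachidonic acid and is male-biased, had at most 0.213 CPM in the other 9 libraries of 6 months and 256 CPM in replicate 5.

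Cyp2c40, an arachidonic acid hydroxylase that is higher in females, was lower in HIRA livers. Controls had 165, 164, 109, 158 and 218 CPM, HIRA replicates 1 to 4 had 51.7, 99.7, 73.1 and 75.7 and replicate 5 had 4.57, so no HIRA liver reached the lowest control. The log2 fold change was -1.42 ± 0.43 with all libraries (edgeR adjusted p = 0.103) and -1.12 ± 0.24 without replicate 5 (adjusted p = 0.0219), when the gene fell. That call was lost in a fit of the 6-month libraries alone without replicate 5 (adjusted p = 0.0761). Its close copy Cyp2c69 had 549, 602, 360.0, 522 and 572 CPM in controls and 234, 342, 143, 271 and 2.39 in HIRA livers, also without overlap, with a log2 fold change of -1.39 ± 0.61 (adjusted p = 0.276) or -1.07 ± 0.35 without replicate 5 (adjusted p = 0.117). As these genes share many sequence windows, their reads may not be independent.

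Cyp2j5 had 673, 683, 624, 656 and 797 CPM in controls and 429.6, 650.1, 468, 500.1 and 608 in HIRA livers, and only HIRA replicate 2 reached the range of the controls. Its log2 fold change of -0.37 ± 0.11 did not pass (edgeR adjusted p = 0.101, or 0.0613 without replicate 5). Cyp2c70 had 631, 814, 602, 780.0 and 869.7 and 501, 533, 694, 542 and 304 CPM (log2 fold change -0.52 ± 0.16, adjusted p = 0.104, or -0.38 ± 0.13 and 0.124 without replicate 5), with overlap through HIRA replicate 3. Cyp2g1, best known from the olfactory epithelium, had 5.59, 12.5, 8.17, 14.8 and 12.0 and 2.54, 8.11, 2.82, 10.2 and 0.762 CPM (log2 fold change -1.12 ± 0.45, adjusted p = 0.228, or -0.85 ± 0.39 and 0.258 without replicate 5). These 3 genes had lower means in HIRA livers and none passed the test.

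In the Cyp3a array the 6-month HIRA livers did not form a single level. Cyp3a41a had 128, 198, 176, 190.2 and 113 CPM in controls and 7.24, 117, 13.4, 117 and 0.0508 in HIRA livers. Cyp3a44 had 144, 263, 197, 253 and 87.5 and 18.0, 141, 3.19, 56.8 and 0.254 CPM, and Cyp3a16 had 126, 285, 130.02, 159 and 145 and 18.7, 113, 9.46, 89.4 and 0.0508 CPM. HIRA replicates 2 and 4 lay within the control range or closest to it, replicates 1 and 3 were lower, and replicate 5 was at or near 0. Cyp3a41b followed the same order with 0.626, 23.1, 1.12, 20.6 and 0 CPM in HIRA livers and 16.6, 25.4, 43.7, 47.0 and 17.8 in controls. In Cyp3a11 the order among replicates 1 to 4 was the opposite, replicates 1 and 3 being the highest at 4132 and 4789 CPM. The log2 fold changes without replicate 5 were -1.79 ± 0.61 for Cyp3a44, -1.55 ± 0.66 for Cyp3a16 and -1.34 ± 0.58 for Cyp3a41a, and none passed (edgeR adjusted p = 0.129, 0.222 and 0.23). Cyp3a16, at chr5:145436309-145469723, lay below every control in all 5 HIRA livers.

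**Figure D2:**
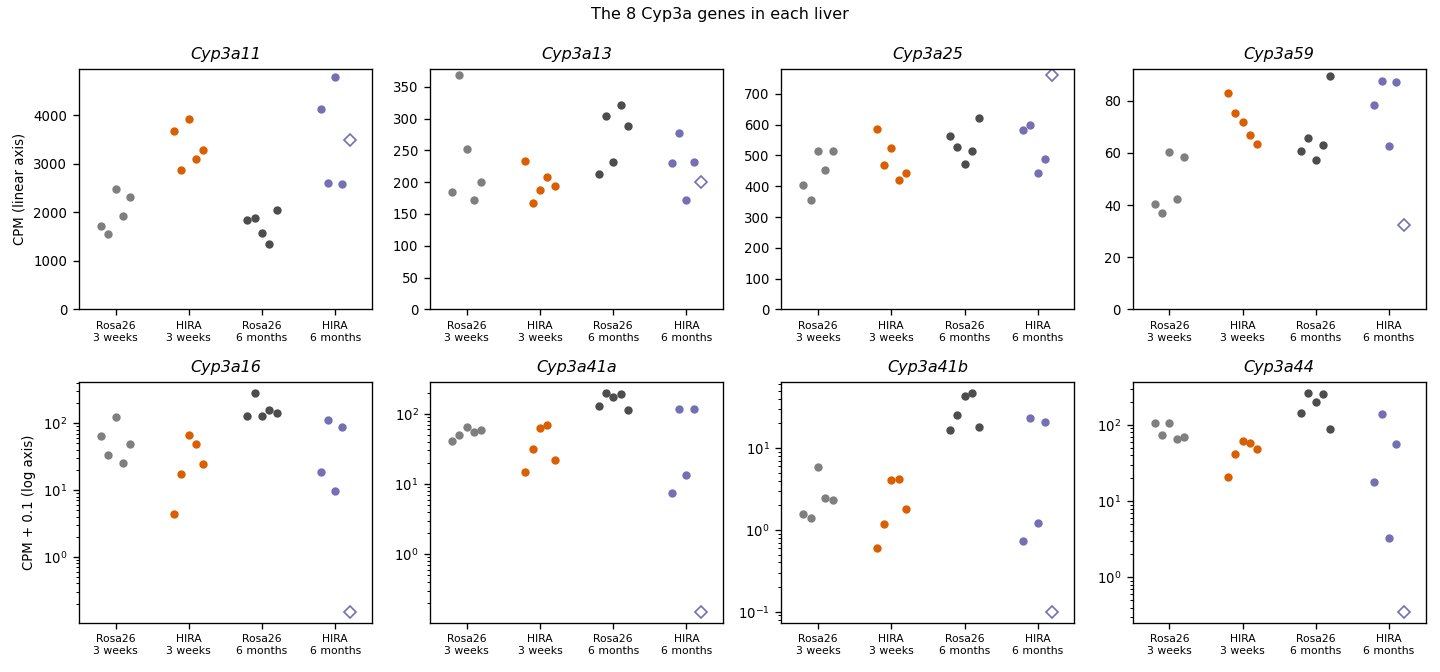
Level of each Cyp3a gene in every liver, by guide and time. The upper row is in CPM on linear axes from 0 and the lower row in CPM + 0.1 on log axes, and the diamond is HIRA 6 months replicate 5. Cyp3a11 was above all controls in every HIRA liver at both times, and Cyp3a16, Cyp3a41a, Cyp3a41b and Cyp3a44 were spread widely among HIRA livers at 6 months.

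In 1 of 59 members, Cyp3a11, all 5 HIRA livers lay above all controls at 6 months, beside 1.41% of all genes tested, and in 3 of 59, Cyp2c40, Cyp2c69 and Cyp3a16, all lay below, beside 1.74%. Without replicate 5 the 4 remaining livers lay above all controls in 2 of 59 members, Cyp3a11 and Cyp2a4 (2.72% of all genes), and below in 3 of 59, again Cyp2c40, Cyp2c69 and Cyp3a16 (2.96%). Cyp2a4, a testosterone 15-alpha-hydroxylase that is higher in females, had 503, 485, 511, 563 and 548 CPM in controls, 724, 701, 595 and 1067 in HIRA replicates 1 to 4 and 12.2 in replicate 5. Its log2 fold change was 0.25 ± 0.53 with all libraries and 0.56 ± 0.23 without replicate 5 (edgeR adjusted p = 0.887 and 0.204). Among female-higher genes Cyp2a4 thus had a positive difference and Cyp2c40 a negative one.

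Of the 10 P450 genes listed as female-higher, 3 had positive and 7 negative differences at 6 months without replicate 5, with 1 called, Cyp2c40, and a median of -1.10. The 4 Cyp4a genes under PPAR alpha had positive differences, with a median of 0.70 with all libraries and 0.78 without replicate 5, and 0 of 4 were called by edgeR (1 and 2 with an unadjusted p under 0.05). Cyp4a14 had 839, 509, 416, 361 and 166 CPM in controls and 2394, 793, 596, 618 and 702 in HIRA livers, with HIRA replicate 1 the highest of all 20 libraries. The 8 followers of DBP, TEF and HLF had a median of 0.25, the 8 pericentral genes 0.14 and the 9 targets of CAR and PXR 0.09, with 8, 7 and 8 positive. Without replicate 5 these medians were 0.46, 0.06 and 0.04, with 7, 5 and 5 positive, and each of the lists held 1 called gene in both fits, Cyp3a11. Over all genes, 54.3% of differences were positive with all libraries and 53.4% without replicate 5, when 46.5% were negative. At an unadjusted p under 0.05, 8.68% and 9.94% of all genes were higher, and 0.332% and 0.449% were called. The 3 targets of the aryl hydrocarbon receptor had a median of 0.33 with all libraries and none called. Without replicate 5 they differed in sign, with 0.31 ± 0.37 for Cyp1a1, -0.26 ± 0.19 for Cyp1a2 and 1.48 ± 0.46 for Cyp1b1. The edgeR adjusted p was 0.725, 0.519 and 0.0986, and Cyp1a1 and Cyp1b1 had few counts.

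Among the 10 members with the highest levels per kilobase, only Cyp3a11 had guides that did not overlap when all libraries were compared, and Cyp2a4 also separated at 6 months without replicate 5. The values of 6 of the others follow. Cyp2e1 stood at 6011, 4316, 4641, 4712 and 5337 CPM in Rosa26 and 6543, 5491, 4250.2, 5796 and 5844 in HIRA livers at 3 weeks, and 5121, 4780.0, 3645, 4362 and 3589.5 and 5388, 5437, 2716, 4691 and 7349 at 6 months. Cyp2c29, a target of CAR, stood at 1349.9, 1228, 1553, 1483 and 1623 CPM in Rosa26 and 1856, 1369, 1702, 1645 and 1701 in HIRA livers at 3 weeks, and 1842, 1465, 1261, 1461 and 1796 and 1645, 1875, 1252, 1642 and 1905 at 6 months. Cyp2c37, an epoxygenase of arachidonic acid, stood at 1161, 569, 1043, 946 and 1186 CPM in Rosa26 and 1185, 954, 1105, 961 and 1139 in HIRA livers at 3 weeks, and 1217, 869, 676, 798 and 618 and 1520.0, 1326, 363, 925 and 540.0 at 6 months. In each of these 3 genes the ranges of the guides overlapped. The periportal Cyp2f2 stood at 724, 511, 831, 666 and 1003 CPM in Rosa26 and 981, 755, 920.4, 879 and 809 in HIRA livers at 3 weeks, and 953, 681, 859, 774 and 774 and 825, 953, 693, 804 and 1452 at 6 months. For Cyp2d10 the values were 836, 615, 671, 664 and 719 CPM in Rosa26 and 796, 737, 714, 642 and 728 in HIRA livers at 3 weeks, and 644, 609, 463, 572 and 509.9 and 725, 686, 467, 524 and 936 at 6 months. For Cyp2d26 they were 1419, 1292, 1468, 1101 and 1278 CPM in Rosa26 and 1387, 1143, 1247, 1151 and 1283 in HIRA livers at 3 weeks, and 1404, 1398, 1225, 1504 and 1186 and 1485, 1499.5, 888, 1179 and 1532 at 6 months. The log2 fold changes of the HIRA over the Rosa26 guide had 95% intervals of -0.21 to 0.53 at 3 weeks and -0.27 to 0.43 at 6 months for Cyp2e1, and of -0.13 to 0.57 and -0.28 to 0.31 for Cyp2f2, the 6-month values without replicate 5. For Cyp2d10 the intervals were -0.24 to 0.33 and -0.15 to 0.36, and for Cyp2d26 -0.33 to 0.18 and -0.35 to 0.17. They were -0.06 to 0.45 and -0.23 to 0.30 for Cyp2c29, and -0.44 to 0.69 and -0.25 to 0.87 for Cyp2c37. All 12 of these intervals include 0 and none reaches 1, a doubling. They come from the standard error by a normal approximation, so they are somewhat too narrow.

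The female-higher genes Cyp2b9 and Cyp2b13, steroid hydroxylases beside Cyp2b10 on chromosome 7, varied among livers of the same group. Cyp2b9 had 423, 273, 440.3, 315 and 449 CPM in Rosa26 and 509, 471, 542, 478 and 508 in HIRA livers at 3 weeks, and 534, 376, 433, 383 and 382 and 505, 605, 290.4, 427 and 44.6 at 6 months. Cyp2b13 had 206, 185, 199.9, 155 and 292 CPM in Rosa26 and 341, 362, 199, 350.3 and 330.1 in HIRA livers at 3 weeks, and 303, 167, 236, 261 and 337 and 229.6, 279.9, 131, 281 and 1.58 at 6 months. In both the 6-month guides overlapped, replicate 5 of the HIRA group being the lowest liver. The male-higher Cyp2u1, a fatty acid hydroxylase, had 2.48, 5.09, 1.90, 3.34 and 3.21 CPM in Rosa26 and 4.33, 6.93, 2.08, 6.00 and 4.29 in HIRA livers at 3 weeks, and 3.33, 3.08, 3.10, 5.74 and 7.43 and 4.69, 3.42, 5.23, 3.62 and 52.9 at 6 months. Cyp4v3, another fatty acid hydroxylase, had 194, 184, 247, 187 and 279.6 CPM in Rosa26 and 311, 252, 276, 284 and 275 in HIRA livers at 3 weeks, and 321, 252, 293, 275 and 241 and 263, 316, 209, 252 and 385 at 6 months, and its 3-week log2 fold change of 0.36 ± 0.14 did not pass (edgeR adjusted p = 0.447). Both Cyp2u1 and Cyp4v3 overlapped between guides at both times.

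By subfamily, the median log2 fold changes at 3 weeks, and at 6 months without replicate 5, were 0.80 and 0.34 for the 4 Cyp2a genes, 0.61 and 0.12 for the 3 Cyp2b genes and 0.07 and -0.18 for the 13 Cyp2c genes. They were 0.04 and 0.05 for the 5 Cyp2d genes, 0.13 and -0.24 for the 3 Cyp2j genes, -0.23 and -0.80 for the 8 Cyp3a genes and 0.07 and 0.01 for the 6 Cyp4f genes, which degrade leukotrienes and long-chain fatty acids. At 3 weeks all 4 Cyp2a and all 3 Cyp2b genes were on the higher side and none was called, also without Rosa26 replicate 2. With all libraries 49% of all genes were on the higher side. Without Rosa26 replicate 2 the 3-week medians were 0.61 for Cyp2a, 0.57 for Cyp2b, 0.0026 for Cyp2c, 0.08 for Cyp2d, 0.07 for Cyp2j, -0.20 for Cyp3a and -0.03 for Cyp4f, whose sign turned. At 6 months without replicate 5, 10 of the 13 Cyp2c genes were on the lower side, beside 46.5% of all genes, with Cyp2c40 called and 5 lower at an unadjusted p under 0.05, beside 7.77% of all genes. With all libraries 6 of the 13 were on the lower side and 3 had such a p.

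**Figure D3:**
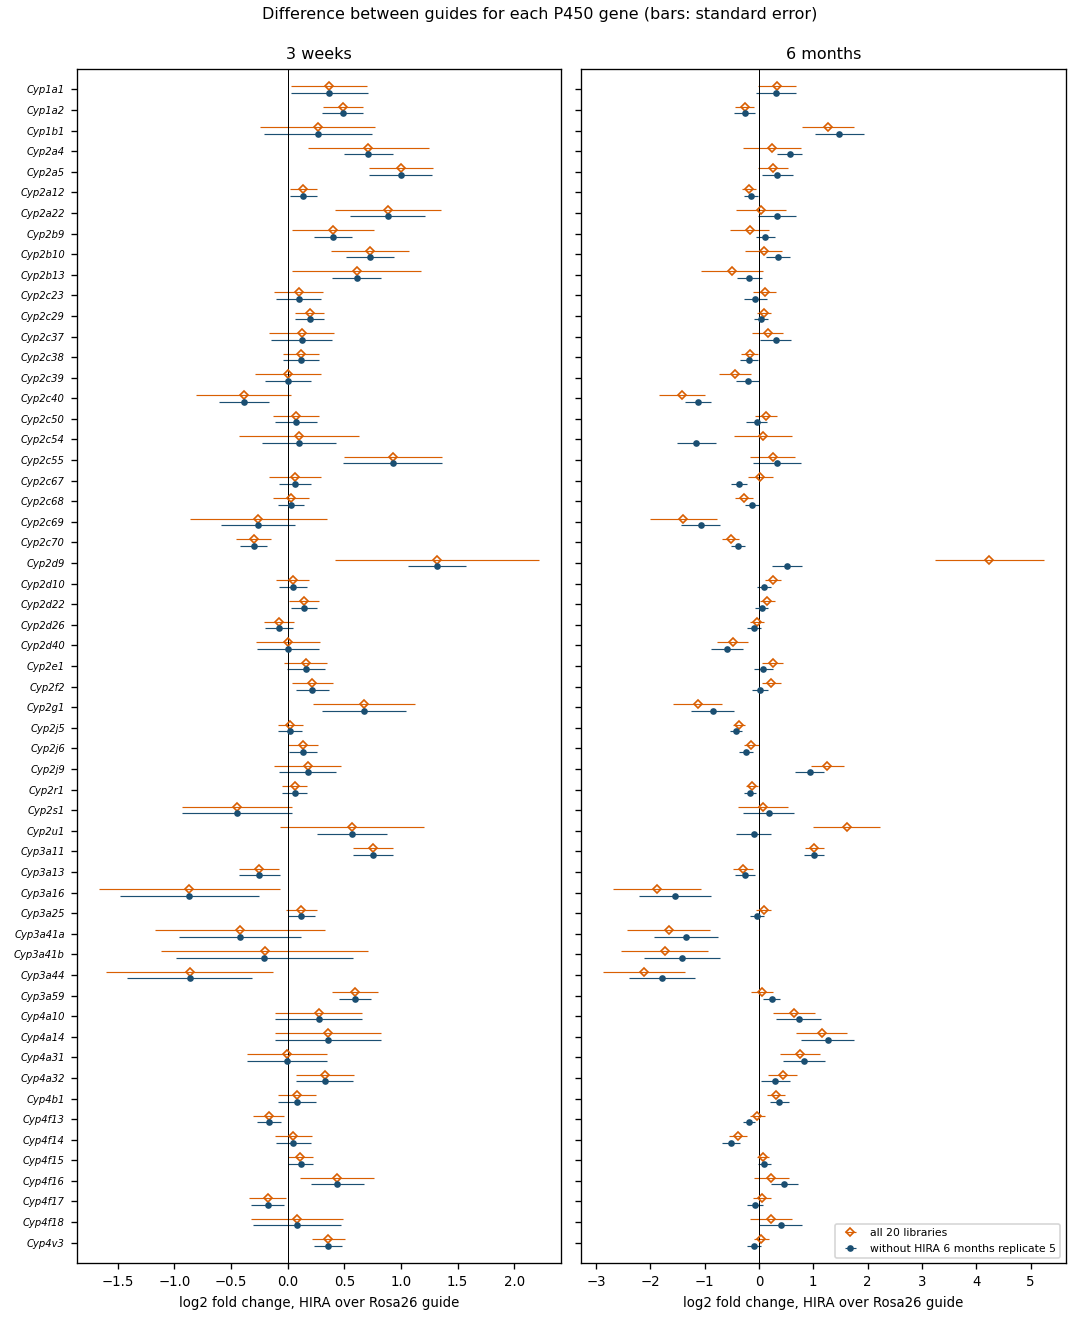
Log2 fold change of the HIRA over the Rosa26 guide at 3 weeks (left) and 6 months (right) for 57 members, with standard errors, from the fit of all 20 libraries (open diamonds) and without HIRA 6 months replicate 5 (filled circles). Cyp4a12a and Cyp4a12b are left out because they had almost no counts outside that library. Cyp3a11 was higher at both times in both fits, and Cyp2d9 at 6 months moved from 4.24 to 0.51 without the library.

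In the departing library the listed sex-biased members lay outside the range of the other livers, as did other members. Of the members averaging at least 1 CPM over the other 19 libraries, 33 of 56 lay outside their range (58.9%), beside 3908 of 12904 genes (30.3%). Outside the range and at least 4-fold from the median of the 19 were 2 members above and 12 below, 25.0% beside 0.759% of all genes. All 4 listed male-higher genes lay above the range, which for Cyp4a12a and Cyp4a12b follows from the count rule, as the other 19 libraries held 26 and 8 counts. Cyp4a12a was at 256 CPM against at most 0.213, Cyp2d9 at 991 against at most 56.6, Cyp2u1 at 52.9 against at most 7.43 and Cyp4a12b at 16.6 against at most 0.0911. All 10 female-higher genes lay below it. Cyp2b13 had 1.58 CPM against a median of 261 in the other 19, Cyp2c69 2.39 against 429, Cyp2a4 12.2 against 563, Cyp2b9 44.6 against 440.3 and Cyp2b10 11.5 against 64.7. Of the 45 members on neither list, 14 lay above the range, 7 below it and 24 within it. The 7 below were Cyp2a22 at 21.3 CPM against a median of 182, Cyp2g1 at 0.762 against 7.50, Cyp2c39 at 2.39 against 10.1, Cyp2c68, Cyp2c70, Cyp3a59 and Cyp4f16. Among the 14 above were Cyp2e1, Cyp2c29, Cyp2d10, Cyp2d26 and Cyp2f2. This is 1 library, singled out because it departs in hormone-dependent P450 genes, so the shares only describe it and there is no test.

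**Figure D4:**
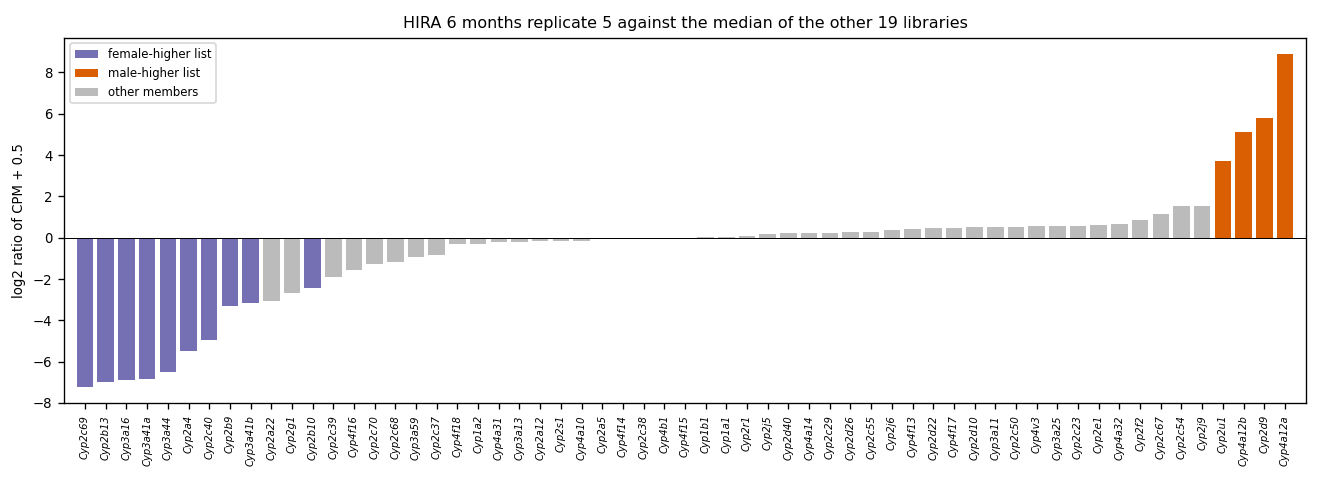
Log2 ratio of CPM + 0.5 in HIRA 6 months replicate 5 to the median of the other 19 libraries for each of the 59 members, sorted and coloured by list. The 10 female-higher genes are among the 12 lowest bars and the 4 male-higher genes are the highest bars.

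The summed level of the 10 female-higher genes was 1125 to 2681 CPM in Rosa26 and 1859 to 2664 in HIRA livers at 3 weeks, the lowest control being replicate 2 and the other 4 lying between 1763 and 2681. At 6 months it was 2262 to 2604 in controls, 1328 to 2526 in HIRA replicates 1 to 4 and 77.3 in replicate 5. The sum of the 4 male-higher genes was 15.7 to 26.7 and 29.5 to 60.9 CPM at 3 weeks, 12.5 to 21.3 and 14.2 to 25.0 at 6 months, and 1317 in replicate 5. In the 3-week HIRA livers Cyp2d9 made up most of this sum, and all 5 sums exceeded those of the controls.

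Between 3 weeks and 6 months no P450 gene was called in Rosa26 livers with all libraries, and Cyp2j5 and Cyp3a41b had the smallest p. By edgeR 0 of 59 members were called, beside 0.162% of all genes, with 9 higher and 2 lower at 6 months at an unadjusted p under 0.05, beside 6.38% of all genes in each direction. Without Rosa26 3 weeks replicate 2 these were 6 and 3, and 0 were called. DESeq2 called 2, Cyp3a41b higher and Cyp4a31 lower. Without HIRA 6 months replicate 5, which is in neither group but shares the spread estimate, edgeR called 1 of 58, Cyp3a41b, beside 0.366% of all genes. In 4 of 59 members all 6-month controls lay above all 3-week controls, Cyp2j5, Cyp3a16, Cyp3a41a and Cyp3a41b, beside 1.69% of all genes tested, and 0 of 59 lay below, beside 1.81%.

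Cyp3a41b had 1.47, 1.30, 5.73, 2.34 and 2.23 CPM at 3 weeks and 16.6, 25.4, 43.7, 47.0 and 17.8 at 6 months. The log2 fold change was 3.51 ± 0.88, with an edgeR adjusted p of 0.0792 with all libraries and 0.0271 without the departing one. Its near-identical copy Cyp3a41a had 40.6, 49.7, 65.7, 54.7 and 58.5 and 128, 198, 176, 190.2 and 113 CPM (log2 fold change 1.58 ± 0.76, adjusted p = 0.39, or 0.175 without that library). All 6-month values of both genes exceeded all 3-week values, but with most sequence shared reads of these copies may have been split between them or dropped. Cyp3a16 had 63.8, 33.2, 122, 25.3 and 49.1 and 126, 285, 130.02, 159 and 145 CPM, again without overlap (log2 fold change 1.52 ± 0.80, adjusted p = 0.446, or 0.253).

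Cyp2j5 had 469.5, 522, 523, 464 and 544 CPM at 3 weeks and 673, 683, 624, 656 and 797 at 6 months in controls (log2 fold change 0.45 ± 0.11, edgeR adjusted p = 0.079, or 0.0505 without the departing library). In HIRA livers it had 530.1, 427, 503, 559.7 and 541 and 429.6, 650.1, 468, 500.1 and 608 CPM, ranges that overlap between times. Cyp2c55 and Cyp2a5 also had higher means at 6 months in controls, with log2 fold changes of 1.24 ± 0.43 and 0.79 ± 0.28 (adjusted p = 0.206 and 0.22), though Cyp2c55 ran up to 30.8 CPM in 1 liver. Lower means were those of Cyp4a31, with 11.8, 3.69, 12.8, 5.86 and 7.63 and 2.60, 3.40, 3.18, 3.01 and 5.69 CPM (log2 fold change -1.22 ± 0.37, adjusted p = 0.141 by edgeR and 0.0362 by DESeq2), and of Cyp2d10, Cyp2j9, Cyp4f13 and Cyp2c54, whose log2 fold changes ran from -0.74 to -0.21. None of these passed the edgeR threshold.

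In HIRA livers 0 of 59 members were called between 3 weeks and 6 months with all libraries, beside 0.0569% of all genes, with 0 called by DESeq2. At an unadjusted p under 0.05, 6 were higher and 5 lower, beside 5.58% and 3.36% of all genes, but Cyp4a12a and Cyp4a12b are among the 6 and owe their membership to replicate 5 of this group. Without replicate 5 the balance turned, with 2 higher (Cyp1b1 and Cyp3a41b) and 7 lower, beside 6.4% and 3.72% of all genes. Without replicate 5, edgeR called 2 of 58 lower at 6 months, Cyp2d9 and Cyp2c54, beside 0.11% of all genes. Cyp2d9 went from 55.2, 50.6, 27.3, 41.0 and 56.6 CPM at 3 weeks to 20.1, 16.2, 16.8 and 10.46 in replicates 1 to 4 at 6 months (log2 fold change -1.53 ± 0.28, edgeR adjusted p = 0.0222), and its sign is reversed when replicate 5 is kept (2.19 ± 0.91). Cyp2c54 fell from 196, 152, 83.7, 144 and 239 to 32.9, 55.8, 35.0 and 40.0 CPM (log2 fold change -1.99 ± 0.37, adjusted p = 0.028), while replicate 5 had 318 CPM. With all libraries its log2 fold change was -0.76 ± 0.53 (edgeR adjusted p = 0.736).

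Cyp1a2 and Cyp4f14, a leukotriene B4 hydroxylase, had lower means at 6 months in HIRA livers with or without replicate 5. In 0 of 59 members all 6-month HIRA livers lay above all 3-week ones, beside 0.778% of all genes, and in 3 of 59, Cyp1a2, Cyp2c40 and Cyp4f14, all lay below, beside 0.691%. Without replicate 5 these were 0 of 59 (1.97%) and 5 of 59 (1.37%), with Cyp2c54 and Cyp2d9 added. Cyp2c40 had 120.1, 114, 161, 151 and 197 CPM at 3 weeks, and its log2 fold change over time was -1.29 ± 0.43 (edgeR adjusted p = 0.354), or -0.99 ± 0.24 without replicate 5 (adjusted p = 0.108). Cyp1a2 had 697, 842, 668, 917 and 957 CPM at 3 weeks and 395, 595, 363, 522 and 462 at 6 months, without overlap (log2 fold change -0.80 ± 0.18, edgeR adjusted p = 0.109, or 0.108 without replicate 5). In controls Cyp1a2 had 631, 592, 501, 533 and 550.0 CPM at 6 months, which overlaps the 3-week controls. Cyp4f14 had 272, 268, 291, 265 and 414 and 136, 229, 171, 170.4 and 253 CPM, and all 6-month HIRA livers lay below all 3-week ones (log2 fold change -0.65 ± 0.17, adjusted p = 0.148, or 0.0783 without replicate 5). Cyp1b1, with 0.8295, 0.843, 0.581, 0.788 and 1.72 and 1.41, 1.41, 6.43, 2.20 and 0.864 CPM, had 1.37 ± 0.48 on the log2 scale (adjusted p = 0.372) with replicate 3 the highest at 6 months.

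No change of the guide difference with time was called: 0 of 59 members and 0.0% of all genes passed with all libraries, and 0 of 58 members and 0.0% of all genes without replicate 5, where 0 and 10 had an unadjusted p under 0.05 in the higher and lower direction, beside 4.17% and 3.47% of all genes. DESeq2 called 0 members, and 2 members had a higher and 3 a lower guide difference at 6 months at an unadjusted edgeR p under 0.05, beside 3.67% and 2.95% of all genes. The smallest p belonged to Cyp1a2, whose guide difference was 0.49 ± 0.18 at 3 weeks and -0.26 ± 0.18 at 6 months on the log2 scale (change -0.75 ± 0.25, adjusted p = 0.685). It was followed by Cyp2g1 (-1.79 ± 0.64), Cyp2j9 (1.08 ± 0.42) and Cyp2j5 (-0.39 ± 0.16), with adjusted p of 0.685 to 0.693. For Cyp3a11 the change was 0.26 ± 0.24 bounded by -0.22 to 0.74 (95% interval by a normal approximation, edgeR adjusted p = 0.896), which includes 0.

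The partners of the enzymes were looked at from lists of other genes. Of 5 electron donors (Por, Cyb5a, Cyb5b, Cyb5r3 and Cyb5r1), 0 were called at either time by edgeR, with medians of 0.16 at 3 weeks and 0.08 at 6 months, or -0.04 at 6 months without replicate 5. Por, which encodes P450 oxidoreductase, had 389.7, 315, 284, 349 and 277 CPM in controls and 584, 391, 385, 525 and 439 in HIRA livers at 3 weeks (log2 fold change 0.52 ± 0.17, adjusted p = 0.256). Of 10 genes of heme synthesis and breakdown 0 were called at either time (medians -0.10 and -0.01, or -0.07 at 6 months without replicate 5), and Alas1, the first enzyme of heme synthesis, had log2 fold changes of -0.18 ± 0.23 and 0.59 ± 0.23 (adjusted p = 0.909 and 0.214), and 0.73 ± 0.21 at 6 months without replicate 5 (adjusted p = 0.0788). Of 16 receptors and partner factors, 0 were called at either time. Hnf4a had 0.03 ± 0.11 and 0.17 ± 0.11, the PXR gene Nr1i2 -0.02 ± 0.10 and 0.25 ± 0.10, the CAR gene Nr1i3 -0.24 ± 0.24 and 0.12 ± 0.24, Ahr -0.24 ± 0.14 and -0.03 ± 0.14, and Ppara 0.07 ± 0.16 and 0.04 ± 0.16, with edgeR adjusted p of 0.248 to 0.982. Without replicate 5 the 6-month values were 0.15 ± 0.11 for Hnf4a, 0.26 ± 0.11 for Nr1i2, -0.09 ± 0.23 for Nr1i3, 0.02 ± 0.14 for Ahr and -0.05 ± 0.16 for Ppara, so the signs of Nr1i3, Ahr and Ppara turned.

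Among 4 clock output factors, 2 rose at 3 weeks. Dbp went from 1.52, 1.60, 2.40, 1.76 and 3.54 CPM in controls to 47.6, 38.7, 9.05, 104 and 55.2 in HIRA livers (log2 fold change 4.55 ± 0.79, edgeR adjusted p = 0.0251), and Tef from 42.2, 42.7, 55.0, 38.5 and 67.8 to 144, 123, 71.9, 199 and 141 (log2 fold change 1.47 ± 0.29, adjusted p = 0.0412). Both calls were lost without Rosa26 3 weeks replicate 2 (adjusted p = 0.077 and 0.128). When each of the 20 libraries was left out in turn the call of Dbp was lost in 6 cases and that of Tef in 11, with adjusted p up to 0.077 and 0.131 and log2 fold changes of at least 4.11 and 1.29. None of the 4 was called at 6 months, where Dbp had 32.5, 20.8, 95.1, 63.5 and 18.1 CPM in controls and 3.75, 40.4, 20.5, 110.1 and 115 in HIRA livers. The higher Dbp in 3-week HIRA livers stands beside the differences of its 8 P450 followers at that time, and its part in them was not tested. In Rosa26 livers, fitted without HIRA 6 months replicate 5, Dbp and Tef were higher at 6 months than at 3 weeks. They rose by 4.40 ± 0.77 and 1.35 ± 0.28 on the log2 scale (edgeR adjusted p = 0.0107 and 0.026). Among the followers Cyp2a4, Cyp2a5 and Cyp2b10 were then positive, at 0.29, 0.79 and 0.25. Cyp2c37, Cyp2c50, Cyp3a11, Cyp4a10 and Cyp4a14 were negative, from -0.32 to -0.20, and no follower passed the threshold. Of 10 genes of the growth hormone pathway, 0 were called at 3 weeks. Without HIRA 6 months replicate 5, Stat5a had a 3-week log2 fold change of -0.66 ± 0.14 (edgeR adjusted p = 0.0414), which does not reach the fold threshold. At 6 months Esr1, the estrogen receptor, and Igf1 had edgeR adjusted p of 0.0236 and 0.0388 with log2 fold changes of -0.96 ± 0.20 and -0.47 ± 0.11, which do not reach the fold threshold. Without replicate 5 these were -0.79 ± 0.17 and -0.54 ± 0.11 (adjusted p = 0.0206 and 0.0187), and Bcl6, a male-biased repressor, fell with -1.18 ± 0.30 (adjusted p = 0.0493, or -0.02 ± 0.49 and 1 with all libraries). Cux2, a female-biased regulator, had 64.6, 67.9, 60.5, 97.3 and 56.2 CPM in controls and 75.9, 33.2, 50.9, 85.0 and 0.508 in HIRA livers (log2 fold change -0.50 ± 0.56, adjusted p = 0.737, or -0.18 ± 0.31 and 0.828 without replicate 5).

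Markers of other liver cells differed between the groups to some extent, and their part in the P450 results was not tested. Summed over each list, the ranges in 6-month controls and in HIRA replicates 1 to 4 were 201 to 359 and 332 to 857 CPM for 8 stellate cell markers, 158 to 292 and 236 to 323 for 7 endothelial markers, 187 to 1297 and 316 to 801 for 8 macrophage markers, 62.4 to 126 and 86.5 to 163 for 7 cholangiocyte markers, 8.52 to 31.0 and 17.3 to 41.1 for 8 lymphocyte markers and 2.75 to 19.7 and 3.28 to 6.69 for 5 neutrophil markers. All 8 stellate, 7 endothelial and 8 lymphocyte markers had positive differences at 6 months, with 0 called by edgeR with or without replicate 5. Without replicate 5, 7, 5 and 5 of them had an unadjusted p under 0.05, beside 9.94% of all genes higher at that p and 53.4% with a positive difference. At 3 weeks the sums in controls and HIRA livers were 247 to 398 and 256 to 362 CPM for stellate markers, 251 to 327 and 262 to 304 for endothelial, 324 to 547 and 305 to 528 for macrophage, 77.1 to 121 and 70.3 to 131 for cholangiocyte, 7.59 to 14.4 and 12.6 to 20.1 for lymphocyte and 2.70 to 43.4 and 2.11 to 5.02 for neutrophil markers. Every marker passed the filter, Ly6g was at 0 in 15 libraries, Elane in 4 and Cftr in 2, and no other marker was at 0 in any. Of the 10 hepatocyte markers, 0 were called at either time.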

How the data were processed

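RNA-seq of liver was analysed in 20 libraries, 5 for each guide and time, grouped by their labels. The authors aligned reads to mm10 with STAR and deposited a table of raw read counts per gene and a table of FPKM values, which Cufflinks scales by gene length and library size. The sources name both HOMER and HTSeq for counting, and the sex is not stated alike: female in the labels, male in a passage of the study's text and female in a figure caption. All 20 count columns were used and 0 were left out. Genes with at least 10 counts over the libraries were tested.

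Counts were fitted with edgeR 4.0.16 (R 4.3.3) as a 4-group quasi-likelihood model with TMM scaling, the fit was tested on simulated data, and p-values were adjusted by the Benjamini-Hochberg method over all genes tested. DESeq2 1.42.0, and limma 3.58.1 on log2 of FPKM plus a pseudocount of 1 or 0.1, were alternatives, as were other scalings and filters, a replicate block, a fit of the contrast's libraries alone and leaving out each library. Tables and figures were made with Python 3.11.15, numpy 2.4.6, pandas 2.3.3, matplotlib 3.10.9 and Biopython 1.88, and promoter windows came from RefSeq.

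Library totals of 19916430 to 24079736 counts and the spread between livers limit the precision. Members, gene lists and tests were chosen with earlier results of these data known. All members could be named. Values in every library were due for members past an adjusted p of 0.05 (up to 10 in a direction by fold), filled up to 5 in each direction by the smallest p, for the 10 highest levels per length and for the sex-biased lists, and some are given as ranges.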

Additional observations from a re-analysis of the deposited data

Results flagged for a closer look

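Dixon's test at the 95% level was applied on the log2 scale to each group of 5 livers for the members shown, which made 152 groups. A liver stood apart from the other 4 in 23 of them, with a gap above 0.71 of the group's range. Over all 59 members it was 26 of 236 groups, and over the members not shown 3 of 84. Chance flags about 1 in 20 groups, but the 23 cannot be read against that: 2 follow from the count rule (Cyp4a12a and Cyp4a12b in HIRA 6 months replicate 5), 3 come from a single count among zeros, and that library was singled out for departing in P450 genes. In 11 of these the liver was HIRA 6 months replicate 5, the library with Y-linked counts. Its level was the lowest for Cyp2a4 (0.869), Cyp2b10 (0.739), Cyp2b13 (0.852), Cyp2b9 (0.718), Cyp2c40 (0.786) and Cyp2c69 (0.822), each with the gap as a share of the range. It was the highest for Cyp2c54 (0.767), Cyp2d9 (0.857), Cyp2u1 (0.847), Cyp4a12a (0.953) and Cyp4a12b (0.868).

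The other 12 were in other libraries. The highest liver stood apart for Cyp2b10 in HIRA 3 weeks replicate 1 (0.745), Cyp4f14 in HIRA 3 weeks replicate 5 (0.793), Cyp4a14 in HIRA 6 months replicate 1 (0.795), Cyp2c55 in HIRA 6 months replicate 3 (0.764) and Cyp3a16 in Rosa26 6 months replicate 2 (0.719). The lowest stood apart for Cyp2b13 in HIRA 3 weeks replicate 3 (0.847), Cyp2c40 in Rosa26 3 weeks replicate 2 (0.720), Cyp2c69 in Rosa26 6 months replicate 3 (0.721) and Cyp4f13 in Rosa26 6 months replicate 3 (0.771). For Cyp4a12b the gap was the whole range (1.0) in HIRA 3 weeks replicate 3, Rosa26 3 weeks replicate 2 and Rosa26 6 months replicate 1, where a single count was the only one in the group.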

How the results depend on the processing

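The members called by edgeR (0 at 3 weeks, 5 at 6 months, 0 over time with either guide, 0 for the change of the guide difference) moved with the setting, and the cause was not tested. At 3 weeks DESeq2 and a fit of the contrast's libraries alone called 1 each, and leaving out 1 library gave 0 to 1. At 6 months the count was 3 with edgeR's expression filter, 3 with DESeq2 (2 higher, 1 lower), 1 with robust dispersions, 0 with the contrast's libraries alone (also without replicate 5), 2 with FPKM at either pseudocount and 0 to 6 on leaving out 1 library: 0 without Rosa26 replicate 3 or 4, 1 without Rosa26 replicate 1, 2 or 5, 2 without HIRA replicate 5, 3 without HIRA replicate 1 or 3-week HIRA replicate 3. For Rosa26 livers over time DESeq2 and the contrast's libraries alone called 2, and leaving out 1 library 0 to 1. For HIRA livers over time 1 was called with no filter, 0 to 2 on leaving out 1 library (1 without 6-month replicate 3, 2 without replicate 5). Combined with leaving out HIRA 6 months replicate 5, combinations chosen after seeing the data, DESeq2 called 2 at 3 weeks, 3 at 6 months, 2 over time with each guide, and the contrast's libraries alone called 2 over time with the HIRA guide. No setting gave a call for the change of the guide difference.

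The main fit did not treat replicate numbers as pairs, and whether they mark pairs is not settled. Of 30 same-numbered pairs, 14 had a correlation of deviations over 0.1 (-0.309 to 0.335). Their median was 0.08, beside -0.036 for pairs with different numbers. A replicate block gave 0 calls at 3 weeks, 3 at 6 months and 1 over time with either guide, and without replicate 5 it gave 1, 2, 2 and 2.

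Signs were reversed for Cyp2a4 at 6 months with FPKM (-0.34 and -0.35) and on leaving out 1 library (-0.039, without HIRA replicate 4, to 0.56). Over time in HIRA livers Cyp2d9 reversed with FPKM (-0.033 and -0.065) and without replicate 5 (-1.53, against up to 2.51 without other libraries, -1.55 by DESeq2, -1.52 with the block, -1.55 with the contrast alone), and Cyp2u1 without replicate 5 (-0.16, against up to 1.80, -0.17 by DESeq2, -0.17 with the contrast alone). The change of the guide difference of Cyp2d9 reversed without replicate 5 (-0.80, against up to 3.23, -0.83 by DESeq2, -0.75 with the block). Of 1922 single-gene alternatives, 1811 kept direction and side of the threshold, 30 newly passed the threshold, 66 no longer passed it and 15 reversed. Depth limits Cyp4a12a, Cyp4a12b, Cyp1a1, Cyp1b1 and Cyp2s1, which had few counts per library.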
